A study of Mus musculus with 2 samples.

Results

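B cells were followed in droplet single-cell RNA sequencing of the colonic lamina propria, the connective tissue under the gut epithelium. A barcode was taken as a B cell when it held at least 200 genes, at most 20% mitochondrial UMIs (unique molecular identifiers, each standing for 1 captured RNA molecule), at least 1 UMI of Ms4a1 and at least 2 UMIs of Cd79a. It also had to hold under 50 Jchain UMIs, no Cd3d, Cd3e or Cd3g UMI, under 10 Lyz2 UMIs and under 3 summed UMIs of C1qa, C1qb and C1qc, which limits plasma cells, T cells and macrophages. These limits were met by 422 of 8500 kept barcodes. One library was labelled Lncly6c (1700016P04Rik)-deficient, from mice in which CRISPR-Cas9 cuts on both sides of the gene had removed it, and the other was labelled wild type. Both came from male mice given as C57BL/6, aged 6-8 weeks and held free of specific pathogens, and the deficient strain was made on C57BL/6J. The labels do not say how many mice or founder lines each library holds. In the deposited file names the genotype words stand the other way round. The labels are followed here, and by the file names every direction below would be exchanged.

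The library labelled deficient held 6133 barcodes and 54773076 UMIs, and the library labelled wild type held 3020 barcodes and 23384895 UMIs. No UMI of 1700016P04Rik was counted in either library, so the deleted gene does not check the labels. Each group was 1 library with no replicate. Intervals are therefore 95% intervals of counting error only, no test between the groups was possible, and a difference between libraries cannot be told apart from a difference between preparations. The libraries shared 7 barcode sequences, of which 1 was a B cell in the deficient-labelled library and 0 in the wild-type-labelled library.

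B cells build the antibody response. Their antigen receptor is a membrane immunoglobulin paired with the signalling chains encoded by Cd79a and Cd79b, and Ms4a1 encodes the surface protein CD20. Mature recirculating B cells carry IgM and IgD together, whereas plasma cells lose much of this programme and secrete antibody, in the gut mainly IgA.

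B cells were 357 of 5890 kept barcodes in the deficient-labelled library, or 6.06% (exact Clopper-Pearson interval 5.47 to 6.70%), and 65 of 2610 in the wild-type-labelled library, or 2.49% (1.93 to 3.16%). The deficient-labelled share was the higher, and the intervals did not overlap. Since the libraries are not replicated and other cells make up the rest of each share, this describes these 2 preparations. B cells were shallow: their median was 3660 UMIs and 1414 genes in the deficient-labelled library and 4715 UMIs and 1653 genes in the wild-type-labelled library, against medians over all kept barcodes of 7849 UMIs in the deficient-labelled and 6205 UMIs in the wild-type-labelled library. Their UMIs ran between 835 and 29934 per barcode in the deficient-labelled library and between 560 and 11390 in the wild-type-labelled library. Summed, they gave 1555811 UMIs in the deficient-labelled library and 320990 in the wild-type-labelled library, so the wild-type-labelled side sets the precision of every comparison. The median mitochondrial share was 5.47% in deficient-labelled B cells and 5.13% in wild-type-labelled B cells. Of barcodes over the mitochondrial limit, 0 of 200 in the deficient-labelled library and 0 of 325 in the wild-type-labelled library met the other limits.

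Many B cells lay just inside the rule. Of the members, 160 in the deficient-labelled library and 22 in the wild-type-labelled library held exactly 1 Ms4a1 UMI, and 28 deficient-labelled and 1 wild-type-labelled held exactly 2 Cd79a UMIs. Just outside were 158 deficient-labelled and 20 wild-type-labelled barcodes with at least 2 Cd79a UMIs and no Ms4a1 UMI. These carried the same other markers: Ebf1 was at 1840 CPM (UMIs per 1000000 UMIs of those barcodes) and Cd79b at 611 CPM in the deficient-labelled ones, and Ebf1 at 2143 CPM and Cd79b at 710 CPM in the wild-type-labelled ones. With 1 Cd79a UMI only, 12 deficient-labelled and 0 wild-type-labelled barcodes were left out. The Ms4a1 and Cd79a limits together were met by 407 deficient-labelled and 68 wild-type-labelled barcodes, and the others were removed by a limit on other cells. In the deficient-labelled library the T cell limit alone removed 9, the Lyz2 limit 12, the C1q limit 12, the Jchain limit 2 and more than 1 limit 15. In the wild-type-labelled library the C1q limit, the Jchain limit and more than 1 limit removed 1 each. The 12 deficient-labelled barcodes removed for Lyz2 had a median of 11730 UMIs.

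Markers that the rule did not read were also high in these cells. On GRCm38 (GENCODE M21) Ms4a1 lies at chr19:11249675-11266241 and Cd79b at chr11:106311341-106314762 on the minus strand, Cd79a at chr7:24897381-24902197 and Ebf1 at chr11:44617317-45008091 on the plus strand, and Ighd in the heavy chain locus at chr12:113406604-113416324 on the minus strand. Ebf1, a transcription factor that specifies the B lineage, was found in 356 of 357 deficient-labelled and 64 of 65 wild-type-labelled B cells. It stood at 1834 CPM in deficient-labelled and 1888 CPM in wild-type-labelled B cells, against 1.75 CPM in deficient-labelled and 0 CPM in wild-type-labelled T cells, and 1.94 CPM in deficient-labelled and 0.136 CPM in wild-type-labelled dendritic cells. Cd79b was at 710 CPM in deficient-labelled and 573 CPM in wild-type-labelled B cells, and at 131 CPM in deficient-labelled and 168 CPM in wild-type-labelled plasma cells. Ighd, the IgD heavy chain constant gene, was at 428 CPM in deficient-labelled and 576 CPM in wild-type-labelled B cells and at most 8.63 CPM in T, plasma or dendritic cells of either library. Ms4a1 and Cd79a, which chose the cells, were at 528 CPM and 1681 CPM in deficient-labelled B cells and at 520 CPM and 1760 CPM in wild-type-labelled B cells. The comparison cells were chosen from the same matrices: T cells by Cd3 UMIs (244 deficient-labelled, 85 wild-type-labelled), plasma cells by at least 50 Jchain UMIs (57 deficient-labelled, 5 wild-type-labelled) and dendritic cells by Flt3 and H2-Ab1 (816 deficient-labelled, 445 wild-type-labelled). T cells and dendritic cells also had to hold no Ms4a1 or Cd79a UMI, so their lack of both was set by the choice. The Lyz2 and C1q limits of the B cell rule applied to them too.

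**Figure D1:**
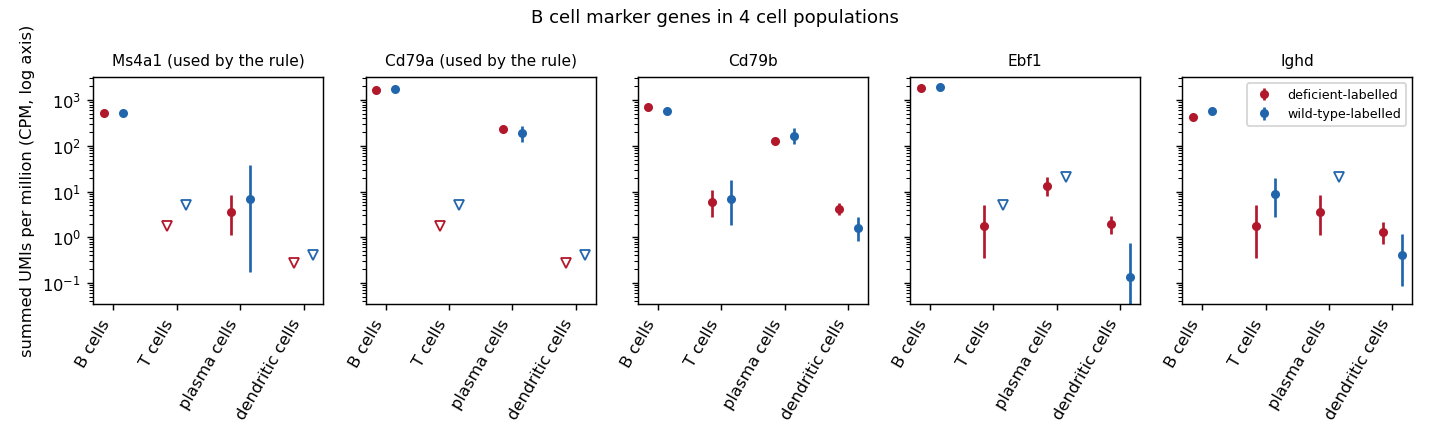
Summed UMIs per 1000000 UMIs (CPM, log axis) of Ms4a1, Cd79a, Cd79b, Ebf1 and Ighd in 4 cell populations of the deficient-labelled (red, left) and the wild-type-labelled (blue, right) library, with exact Poisson intervals. Open triangles mark genes with no UMI, drawn at the level of 3 UMIs. T cells and dendritic cells were chosen to hold no Ms4a1 or Cd79a UMI. Ebf1 and Ighd, which the rule did not read, are high in B cells of both libraries, and Cd79b is also found in plasma cells.

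The genes that set B cells apart from all other kept cells were the B cell surface and signalling genes. Ranked by the smaller of the ratios in both libraries, Ms4a1 led, followed by Fcmr, the receptor for the constant part of IgM, Cd79a, Pax5 and Ebf1. Fcmr was at 323 CPM in deficient-labelled B cells, against 5.39 CPM in the other cells of that library, and at 424 CPM in wild-type-labelled B cells, against 1.65 CPM in the other cells there. Pax5, the factor that keeps B cells committed, was at 221 CPM in B cells against 4.73 CPM in other cells of the deficient-labelled library, and at 271 CPM against 1.25 CPM in the wild-type-labelled library. Other genes among the leading 15 included Chst3, a carbohydrate sulfotransferase, Vpreb3, Blk, a Src-family kinase of the antigen receptor, Fcer2a, the low-affinity IgE receptor CD23, Fcrla, Dtx1, a regulator of the Notch pathway, Cd79b, Cxcr5, the chemokine receptor that leads B cells into follicles, and Bank1, an adaptor of receptor signalling. Their log2 ratios lay between 4.90 (Bank1) and 5.90 (Fcmr) in the deficient-labelled library, leaving out the genes that the rule read. Immunoglobulin genes were left out of this ranking, in which Ighd, at 5.42 in the deficient-labelled and 7.30 in the wild-type-labelled library, would otherwise stand. Leaving out the genes that the rule read, the ratios of the leading genes ran higher in the wild-type-labelled library, up to 8.01 for Fcmr. The other kept cells include the barcodes just outside the rule that carried the same markers. With no Ms4a1 UMI, these were 158 of 5533 in the deficient-labelled and 20 of 2545 in the wild-type-labelled library. Their part in the ratios was not tested. These ratios describe the chosen cells and test nothing.

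Promoters of these genes are shown because B cell transcription factors are known to read short motifs in such windows. The windows run from 250 bases before to 50 bases after the gene start given by RefSeq on GRCm38.p6, and 43 of 53 genes of the B cell lists and leading genes had an entry. The octamer ATGCAAAT, read by Pou2f2 with its coactivator Pou2af1, was searched on both strands and was found in 3 of the 43 (Blnk, Prkcb, Vpreb3) and in 1.74% of 32851 promoters. The palindromic Ebf1 motif, taken as TCCC and GGGA with any 2 bases between them, was in 3 (Cd22, Chst3, Foxo1) and in 0.904% of all. The motif GAGGAAGT, of the kind read by the ETS factors PU.1 and Spi-B, was in 7 (Btla, Cd5, Cd72, Fcrl1, Inpp5d, Pirb, Vav1) and in 3.2% of all. In the windows shown, no match overlaps another. A match is a description of the letters and not a shown binding site. Capitals mark the match in 1 example of each, on the strand of the gene: Vpreb3 at chr10:75948050-75948349 on the plus strand (octamer, as ATTTGCAT), Cd22 at chr7:30878979-30879278 on the minus strand and Cd72 at chr4:43454577-43454876 on the minus strand (ETS motif, as ACTTCCTC).
Vpreb3: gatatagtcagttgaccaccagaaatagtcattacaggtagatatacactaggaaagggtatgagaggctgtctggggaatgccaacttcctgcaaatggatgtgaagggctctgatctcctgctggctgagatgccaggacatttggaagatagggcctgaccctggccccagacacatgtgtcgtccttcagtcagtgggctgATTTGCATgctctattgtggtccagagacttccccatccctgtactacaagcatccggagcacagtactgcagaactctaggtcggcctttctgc
Cd22: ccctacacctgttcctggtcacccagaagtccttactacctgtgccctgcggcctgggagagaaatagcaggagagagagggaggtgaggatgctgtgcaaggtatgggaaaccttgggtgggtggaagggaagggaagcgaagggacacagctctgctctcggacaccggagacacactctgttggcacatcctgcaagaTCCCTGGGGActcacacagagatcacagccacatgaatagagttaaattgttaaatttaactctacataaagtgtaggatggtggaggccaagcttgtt
Cd72: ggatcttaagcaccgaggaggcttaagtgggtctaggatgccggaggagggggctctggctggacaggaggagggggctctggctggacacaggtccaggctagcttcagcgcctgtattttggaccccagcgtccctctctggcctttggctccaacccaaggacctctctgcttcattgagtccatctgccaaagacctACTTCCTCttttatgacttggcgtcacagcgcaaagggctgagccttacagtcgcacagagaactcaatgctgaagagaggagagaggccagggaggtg
In these 3 windows the matches start 45 to 49 bases before the gene start. Over all the genes with a match, the offsets from the gene start ran from -198 (Chst3) to -11 (Vav1). The levels of the same genes in B cells were 134 CPM for Vpreb3 in both libraries. Cd72, an inhibitory co-receptor, was at 143 CPM in deficient-labelled and 137 CPM in wild-type-labelled B cells. Cd22, an inhibitory lectin of the antigen receptor, was at 59.1 CPM in deficient-labelled and 109 CPM in wild-type-labelled B cells, a log2 ratio of -0.88 (-1.46 to -0.28). With 2 Ms4a1 UMIs required it was -0.19, within 1.5-fold, and under tighter limits on UMIs of other cells it was -1.33. It kept its sign in 9 of 9 alternatives.

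Nearly all B cells carried IgM or IgD as the leading heavy chain. Among the constant gene UMIs of each cell, Ighm and Ighd together led in 335 of 357 deficient-labelled B cells, or 93.8% (90.8 to 96.1%), and in 63 of 65 wild-type-labelled B cells, or 96.9% (89.3 to 99.6%). Igha led in 12 deficient-labelled and 2 wild-type-labelled B cells, and the IgG genes together led in 4 deficient-labelled and 0 wild-type-labelled ones. Kappa led the light chains in 343 deficient-labelled B cells, or 96.1%, and in 60 wild-type-labelled B cells, or 92.3%. Lambda led in 13 deficient-labelled B cells, or 3.64%, and in 2 wild-type-labelled B cells, or 3.08%. These shares overlapped between libraries in their intervals.

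For shares of cells with a UMI, every barcode was brought to 1000 UMIs, taken as the expectation over all ways of drawing them, which left out 1 B cell per library. Ighd was then found in 35.4% (30.4 to 40.6%) of deficient-labelled and 43.6% (31.4 to 56.7%) of wild-type-labelled B cells, and without thinning in 72.8% of deficient-labelled and 81.5% of wild-type-labelled ones. In T cells, which do not make it, the thinned share was 0.196% in the deficient-labelled and 1.05% in the wild-type-labelled library, at median depths of 4992.5 UMIs in the deficient-labelled and 5970 UMIs in the wild-type-labelled library. Ighm was found in 76.6% of deficient-labelled and 78.7% of wild-type-labelled B cells, against 7.27% of deficient-labelled and 6.48% of wild-type-labelled T cells. Fcer2a was found in 16.0% of deficient-labelled and 17.3% of wild-type-labelled B cells. Cr2, the complement receptor CD21, was found in 5.90% (3.69 to 8.88%) of deficient-labelled and 10.9% (4.51 to 21.3%) of wild-type-labelled B cells. The intervals of these 4 genes overlapped between the libraries.

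IgA behaved in another way. Igha UMIs were found in 24.3% (19.8 to 29.0%) of deficient-labelled B cells, but also in 22.4% (17.2 to 28.0%) of the T cells and 16.6% of the dendritic cells of that library. The shares in the wild-type-labelled library were 4.47% (0.977 to 13.1%) of B cells, 2.01% of T cells and 1.34% of dendritic cells. In both libraries the interval of the B cells overlapped that of the T cells, so the B cell share was not distinguishable from that of T cells, which do not make IgA. Against dendritic cells, the B cell interval lay above theirs (14.2 to 19.4%) in the deficient-labelled library. It overlapped theirs (0.496 to 2.91%) in the wild-type-labelled library. The Igha level was 297 CPM in deficient-labelled and 146 CPM in wild-type-labelled B cells, a log2 ratio of 1.02. In T cells it was 237 CPM in the deficient-labelled and 19.0 CPM in the wild-type-labelled library, a log2 ratio of 3.64. The wild-type-labelled level was higher in B cells (108 to 195 CPM) than in T cells (9.48 to 34.0 CPM), from UMIs in 7 B cells. A few B cells stood out: 14 deficient-labelled and 2 wild-type-labelled ones held at least 5 Igha UMIs, with median depths of 8674.5 UMIs in the deficient-labelled and 9118.5 UMIs in the wild-type-labelled ones, but 14 of the deficient-labelled T cells did so too. The IgG genes were found in 2.08% (0.794 to 4.01%) of deficient-labelled B cells against 0.0298% of T cells (up to 1.51%) and 0.0225% of dendritic cells (up to 0.452%) of that library. In the wild-type-labelled library they were found in 0 of 64 B cells, which allows a share of up to 4.69% at 3 counts, or 5.60% by the exact interval. In the deficient-labelled library the interval of the B cells lay above that of the dendritic cells and overlapped that of the T cells. A difference in IgG between the libraries was not detectable at this depth. The IgG subclass genes are alike in sequence, and reads could be split between them.

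**Figure D2:**
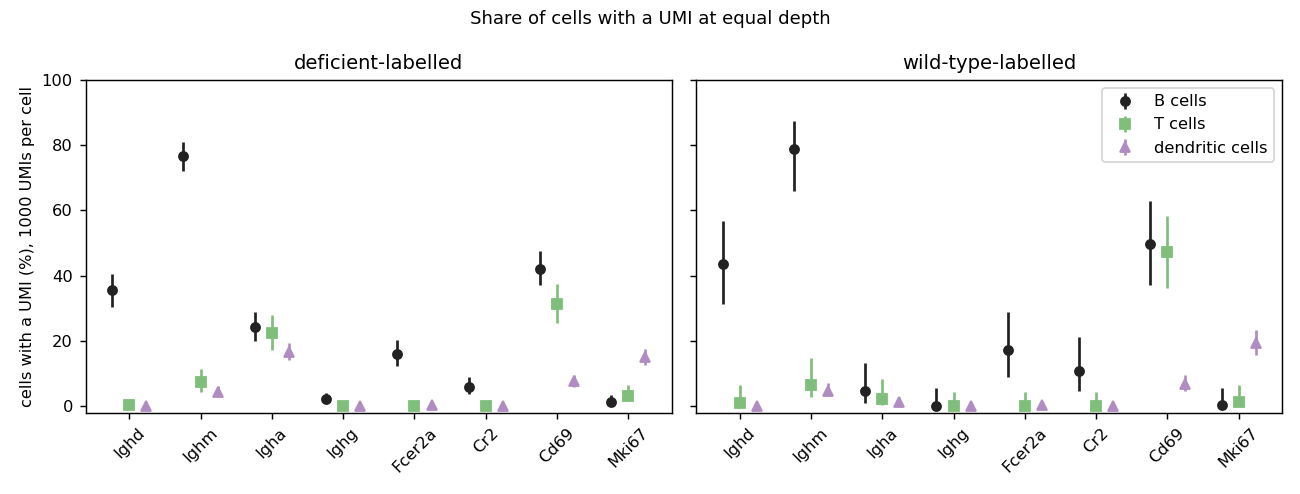
Percentage of cells with at least 1 UMI of a gene after every cell was brought to 1000 UMIs, with exact Clopper-Pearson intervals, in B cells (black), T cells (green) and dendritic cells (purple) of the deficient-labelled (left) and wild-type-labelled (right) library. Ighd, Ighm, Fcer2a and Cr2 stand above the other cells in both libraries, while Igha in the deficient-labelled library is at 24.3% of B cells and 22.4% of T cells.

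Between the libraries most B cell genes lay within 1.5-fold. Of 4454 genes with at least 50 B cell UMIs over both libraries, leaving out immunoglobulin variable segments and the genes of the rule, 590 (13.2%) were over 1.5-fold higher and 421 (9.45%) over 1.5-fold lower in deficient-labelled B cells, together 22.7%. With the interval also on that side of 0, 262 (5.88%) were higher and 263 (5.9%) lower in deficient-labelled B cells. The median log2 ratio was 0.00. Counts of list members below are to be read against these shares, and each log2 ratio has the CPM of deficient-labelled B cells on top.

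The core of the B cell programme was close in both libraries. Of the 16 identity and transcription factor genes, all measured, 1 was over 1.5-fold higher and 1 over 1.5-fold lower, with a median of 0.03. Bcl11a, a factor needed for lymphoid development, was at 95.8 CPM in deficient-labelled and 43.6 CPM in wild-type-labelled B cells (1.13, 0.34 to 2.04). Ikzf1, which encodes Ikaros, was at 72.0 CPM in deficient-labelled and 112 CPM in wild-type-labelled cells (-0.64, -1.19 to -0.06). Foxp1, the second most abundant of the list, was at 899 CPM in deficient-labelled and 879 CPM in wild-type-labelled B cells. Of 15 measured receptor and signalling genes, again 1 was higher and 1 lower, with a median of -0.06. The adaptor Blnk, which couples the kinase Syk to its targets, was at 205 CPM in deficient-labelled and 128 CPM in wild-type-labelled B cells (0.68, 0.21 to 1.19). Bank1 was at 203 CPM in deficient-labelled and 305 CPM in wild-type-labelled cells (-0.59, -0.92 to -0.25). Syk, Btk, Lyn and Plcg2, kinases and the phospholipase of the receptor pathway, had log2 ratios between -0.06 and 0.06. Of 9 measured inhibitory genes, Cd22 was lower, as given above, and the inhibitory Fc receptor gene Fcgr2b was higher, at 88.7 CPM in deficient-labelled and 56.1 CPM in wild-type-labelled B cells, with an interval that included 0 (0.66, -0.05 to 1.46).

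Antigen presentation was level between the libraries. Of 12 MHC class II presentation genes, 1 was over 1.5-fold higher and 0 lower, with a median of 0.09. Cd74, the invariant chain that loads class II molecules, was at 15976 CPM in deficient-labelled and 15923 CPM in wild-type-labelled B cells. H2-Aa, a class II chain, was at 5188 CPM in deficient-labelled and 4819 CPM in wild-type-labelled cells (0.11, 0.03 to 0.19). Ciita, the transcriptional activator of these genes, was at 65.6 CPM in deficient-labelled and 34.3 CPM in wild-type-labelled B cells (0.94, 0.04 to 1.98), from 11 UMIs on the wild-type-labelled side. None of the 8 measured genes of the BAFF and survival list passed 1.5-fold, with a median of 0.02. Tnfrsf13c, the BAFF receptor, was at 106 CPM in deficient-labelled and 81.0 CPM in wild-type-labelled cells (0.39, -0.21 to 1.05).

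Of the follicular and recirculating genes all 12 were measured, and 10 lay within 1.5-fold. None was over 1.5-fold higher and 2 were over 1.5-fold lower, a share not far from the 9.45% of all genes, and the median log2 ratio was -0.28. Cr2 was at 61.7 CPM in deficient-labelled and 122 CPM in wild-type-labelled B cells (-0.98, -1.53 to -0.40). Klf2, which keeps cells recirculating, was at 398 CPM in deficient-labelled and 555 CPM in wild-type-labelled B cells (-0.48, -0.72 to -0.23), and at a log2 ratio of -0.19 with 2 Ms4a1 UMIs required. Ighd had a log2 ratio of -0.43 (-0.67 to -0.19) and Ccr7, a chemokine receptor of lymph node entry, was at 838 CPM in deficient-labelled and 1044 CPM in wild-type-labelled cells (-0.32, -0.49 to -0.14). Fcer2a was level, at 175 CPM in deficient-labelled and 178 CPM in wild-type-labelled B cells, and Cxcr5 was at 137 CPM in both. Summed, the list was at 2997 CPM in deficient-labelled and 3726 CPM in wild-type-labelled B cells (-0.31, -0.41 to -0.22).

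Genes of other B cell states were measured on few UMIs. Of 4 measured marginal zone and B1 genes, 2 were higher: Ahnak, a large scaffold protein gene, at 190 CPM in deficient-labelled and 77.9 CPM in wild-type-labelled B cells (1.28, 0.69 to 1.93; 0.05 under tighter limits on UMIs of other cells), and Cd9, a tetraspanin gene, at 61.1 CPM in deficient-labelled and 34.3 CPM in wild-type-labelled cells (0.83, -0.07 to 1.88). Of 7 measured genes of the plasma cell programme, 4 were higher and 0 lower, with a median of 0.82. Summed, the list was at 882 CPM in deficient-labelled and 779 CPM in wild-type-labelled B cells, with an interval that included 0 (0.18, -0.02 to 0.38). Xbp1, the factor that expands secretory capacity, was at 58.5 CPM in deficient-labelled and 24.9 CPM in wild-type-labelled B cells (1.23, 0.19 to 2.49; 0.48 under those limits), and Mzb1, a chaperone of antibody assembly, at 165 CPM in deficient-labelled and 93.5 CPM in wild-type-labelled cells (0.82, 0.27 to 1.41). Edem1 and Creld2, genes of the endoplasmic reticulum, had log2 ratios of 1.25 and 1.78 and rested on 8 and 3 wild-type-labelled UMIs, with intervals above 0. Irf4, which acts in activated B cells as well, was at 371 CPM in deficient-labelled and 458 CPM in wild-type-labelled B cells (-0.30, -0.57 to -0.03). The markers of plasma cells as a group moved with this list: 6 of 6 were seen in deficient-labelled and 3 of 6 in wild-type-labelled B cells, at 175 CPM in deficient-labelled and 68.5 CPM in wild-type-labelled cells in sum, with Jchain at 77.1 CPM in deficient-labelled and 24.9 CPM in wild-type-labelled ones, and their part in the result was not tested. The markers unseen in the smaller wild-type-labelled pool of UMIs were Prdm1, Derl3 and Tnfrsf17. In deficient-labelled B cells they had 22, 3 and 1 UMIs. Jchain was also at 47.2 CPM in deficient-labelled and 5.18 CPM in wild-type-labelled T cells. Iglc1 was at 105 CPM in deficient-labelled and 21.8 CPM in wild-type-labelled B cells (2.26, 1.19 to 3.60), while Iglc2 and Iglc3 had log2 ratios of 0.02 and 0.23, and reads of these near-identical genes may be split between them. Of the memory list, 3 genes were measured, and Cd44 was higher, at 147 CPM in deficient-labelled and 87.2 CPM in wild-type-labelled cells (0.75, 0.18 to 1.37). Under tighter limits on UMIs of other cells, its log2 ratio was -0.15.

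Activation genes were mixed. Of 15 measured, 2 were higher and 1 lower, with a median of 0.05. Rel, a subunit of the transcription factor NF-kappaB and the most abundant of the list, was at 1160 CPM in deficient-labelled and 1667 CPM in wild-type-labelled B cells (-0.52, -0.66 to -0.38). Cd86, a ligand that costimulates T cells, was at 357 CPM in deficient-labelled and 237 CPM in wild-type-labelled cells (0.59, 0.25 to 0.96), and Myc was at 88.7 CPM in deficient-labelled and 143 CPM in wild-type-labelled cells (-0.69, -1.18 to -0.18). Cd69, an early activation marker that is also kept on tissue-resident lymphocytes, was at 606 CPM in deficient-labelled and 791 CPM in wild-type-labelled B cells (-0.39, -0.59 to -0.18). In thinned cells it was found in 42.1% of deficient-labelled and 49.5% of wild-type-labelled B cells, and in 31.4% of deficient-labelled and 47.2% of wild-type-labelled T cells.

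Of 22 measured immediate-early and stress genes, 3 were higher and 1 lower, with a median of -0.03. Nr4a3, an orphan nuclear receptor gene induced through the antigen receptor, was at 154 CPM in deficient-labelled and 268 CPM in wild-type-labelled B cells (-0.80, -1.16 to -0.42), and its relatives Nr4a1 (-0.45, -0.66 to -0.23) and Nr4a2 (-0.52, -0.97 to -0.04) were lower as well. Junb, a subunit of the factor AP-1, was at 1062 CPM in deficient-labelled and 1417 CPM in wild-type-labelled cells (-0.42, -0.57 to -0.26), while Jund was at 1575 CPM in deficient-labelled and 1464 CPM in wild-type-labelled cells. Nr4a3 and Junb were lower in other cells too, with log2 ratios of -0.57 and -0.62 in T cells. In dendritic cells they were at -0.17 (Nr4a3) and -0.20 (Junb), and these 4 intervals lay below 0. The 3 higher genes were Ier3 and the heat shock genes Hspa1a and Hspa1b. Ier3 rested on 2 wild-type-labelled UMIs (3.01, 1.11 to 6.08).

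Homing and proliferation genes showed no shared direction. Of 9 measured homing genes, Itga4, an integrin chain used to enter the gut, was at 334 CPM in deficient-labelled and 221 CPM in wild-type-labelled B cells (0.59, 0.23 to 0.97). Rgs1, a brake on chemokine signalling, was at 126 CPM in deficient-labelled and 199 CPM in wild-type-labelled cells (-0.66, -1.08 to -0.23), but its log2 ratio was 0.43 without barcodes over 10000 UMIs and 0.41 with likely doublets removed. Of 5 measured proliferation genes, Pcna, the replication clamp, was at 175 CPM in deficient-labelled and 355 CPM in wild-type-labelled B cells (-1.02, -1.34 to -0.69), and Tubb5, a tubulin gene, at 220 CPM in deficient-labelled and 125 CPM in wild-type-labelled cells (0.82, 0.34 to 1.33). Pcna was also lower in T cells (-0.62, -0.86 to -0.37) and dendritic cells (-0.42, -0.52 to -0.31) of the deficient-labelled library. Tubb5 was at 0.49 in T cells and -0.05 in dendritic cells. Mki67 UMIs were found in 1.35% (0.458 to 3.25%) of deficient-labelled and 0.244% (0 to 5.60%) of wild-type-labelled thinned B cells. In thinned T cells the shares were 3.18% (1.43 to 6.38%) in the deficient-labelled and 1.17% (0.0298 to 6.38%) in the wild-type-labelled library. The intervals of B cells and T cells overlapped in both libraries. Of 7 measured interferon-stimulated genes 1 was higher: Ly6a at 88.7 CPM in deficient-labelled and 31.2 CPM in wild-type-labelled B cells (1.51, 0.59 to 2.60). Ly6a was also higher in T cells (1.46, 0.63 to 2.42) and dendritic cells (0.99, 0.63 to 1.36) of the deficient-labelled library. The more abundant Ly6e was at 1276 CPM in deficient-labelled and 963 CPM in wild-type-labelled cells (0.41, 0.23 to 0.58). Of 24 listed genes of that kind, 17 had too few UMIs to be measured.

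**Figure D3:**
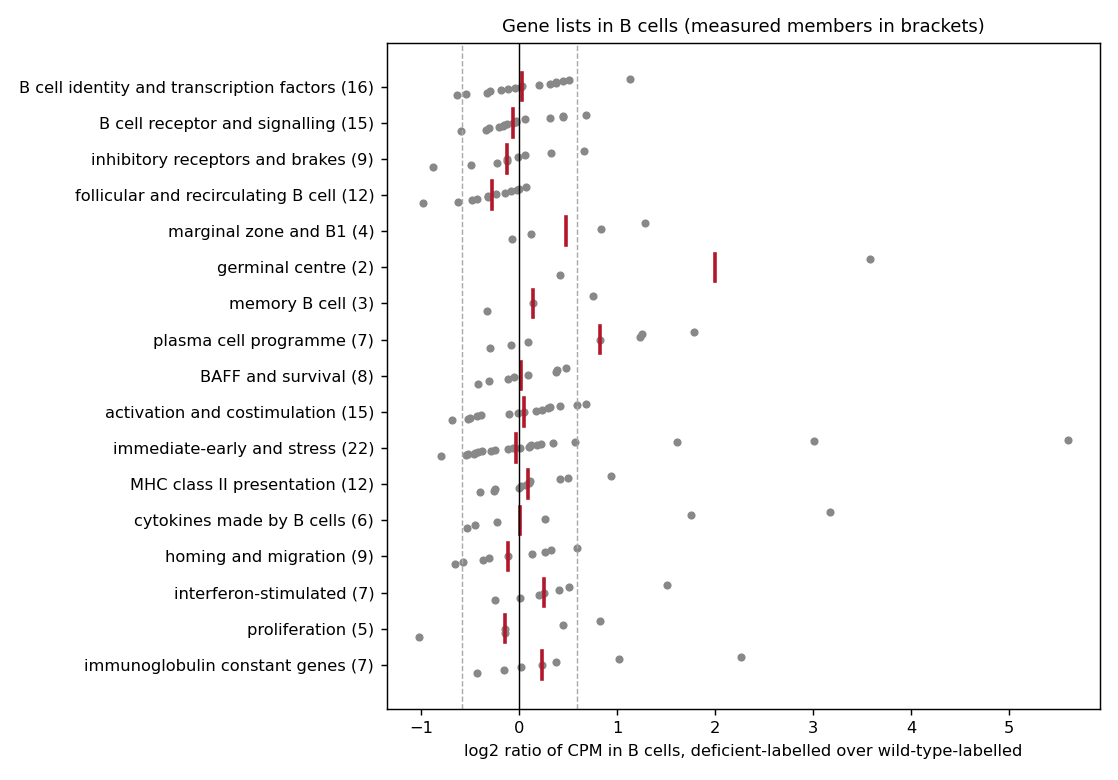
Each grey point is 1 measured gene of a list, at the log2 ratio of its CPM in deficient-labelled over wild-type-labelled B cells, the red bar is the median of the list, and dashed lines mark 1.5-fold. Most points lie between the dashed lines, the follicular list has a median of -0.28 and the plasma cell programme a median of 0.82.

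Several germinal centre genes had most of their few UMIs in 1 barcode. The deepest B cell barcode of the deficient-labelled library, with 29934 UMIs, held 21 of the 23 Rgs13 UMIs, 5 of 6 S1pr2 UMIs, 3 of 3 Gcsam UMIs and 4 of 4 Nuggc UMIs of deficient-labelled B cells. Other genes of the list were not concentrated there: it held 1 of 65 Bcl6 UMIs, 12 of 174 Basp1 UMIs, 1 of 16 Fas UMIs and 2 of 6 Mybl1 UMIs. It carried 13 of 40 Mki67, 28 of 53 Top2a and 9 of 10 Birc5 UMIs, which are genes of dividing cells. It held 84 Ighm UMIs, 0 Ighd UMIs and 31 of the 120 Jchain UMIs. It was singled out after its values were seen, and it also held dendritic cell marker UMIs, at 6. Of the 12 germinal centre genes only Bcl6 (0.42, -0.55 to 1.55) and Basp1 were measured.

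Several of the genes with the largest differences had most of their UMIs in few barcodes. Among genes with at least 100 UMIs, the 12 highest in deficient-labelled B cells were Hspa1b (5.60), Ifitm3 (5.05), Il1b (4.84), Anxa2 (4.67), S100a4 (3.82), Basp1 (3.58), Plbd1 (3.35), S100a6 (3.29), Cd209a, Id2 (2.68), Cxcl2 (2.36) and Ifitm2 (2.35). Hspa1b, a heat shock protein gene on chromosome 17, had 235 UMIs in deficient-labelled and 1 UMI in wild-type-labelled B cells (3.11 to 10.9). Of the 235, 80.9% came from 10 of the 357 barcodes. S100a4, a calcium-binding protein gene of myeloid and memory cells, had 206 UMIs in deficient-labelled and 3 in wild-type-labelled B cells, with 84.0% of the deficient-labelled ones in 10 barcodes. Cd209a, a lectin gene of dendritic cells, had 118 UMIs in deficient-labelled B cells, 88.1% of them in 10 barcodes, and 0 in wild-type-labelled B cells. Set against a floor of 3 UMIs over the wild-type-labelled B cells, it was 8.12-fold higher, a log2 ratio of 3.02. The lower end of its log2 interval was 2.70. Hspa1a and Hspa1b, and Ifitm2 and Ifitm3, are close copies whose reads may be split.

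Some B cell barcodes also held transcripts of dendritic cells. The 6 conventional dendritic cell markers Flt3, Xcr1, Clec9a, Cd209a, Zbtb46 and Itgax summed to 128 CPM in deficient-labelled B cells, with 6 of 6 seen, and to 28.0 CPM in wild-type-labelled B cells, with 2 of 6 seen. The markers unseen in the smaller wild-type-labelled pool were Cd209a, Zbtb46, Xcr1 and Clec9a. In deficient-labelled B cells they had 118, 12, 2 and 1 UMIs. At least 2 UMIs of the 6 markers were found in 20 of 357 deficient-labelled barcodes, or 5.60% (3.46 to 8.52%), and in 1 of 65 wild-type-labelled barcodes, or 1.54% (0.0389 to 8.28%). The 20 were deep, with a median of 8661 UMIs against 3625 UMIs in the other 337, and held 12.8% of all deficient-labelled B cell UMIs. Cd79a was at 980 CPM in the 20 and 1784 CPM in the 337, and Ebf1 at 985 CPM in the 20 and 1958 CPM in the 337. S100a4 was at 819 CPM in the 20 and 31.7 CPM in the 337, Hspa1b at 814 CPM in the 20 and 53.8 CPM in the 337, and Il1b at 442 CPM in the 20 and 139 CPM in the 337. Without such barcodes in either library, a comparison chosen after seeing the data, the log2 ratio was 4.07 for Hspa1b, 2.31 for S100a4, 2.37 for S100a6 and 4.44 for Il1b, and Cd209a was too low for a value. Hspa1a, at 1.61 over all B cells, was at 0.25 without them. Tighter limits on UMIs of other cells moved the ratios further, to 1.82 for Hspa1b, 1.22 for Anxa2, 1.38 for S100a4 and 1.91 for S100a6. Whether these barcodes hold 2 cells was not tested. Removing the barcodes of highest doublet score, a share of 0.8% for each 1000 barcodes, took out 10 of 357 deficient-labelled and 1 of 65 wild-type-labelled B cells. In the deficient-labelled library this was 2.80% of B cells, against 4.72% of all kept barcodes. In the wild-type-labelled library it was 1.54% of B cells, against 2.07% of all kept barcodes. Of the other marker groups, T cell markers summed to 15.4 CPM in deficient-labelled and 15.6 CPM in wild-type-labelled B cells, and neutrophil markers to 20.6 CPM in deficient-labelled and 18.7 CPM in wild-type-labelled cells. Monocyte markers summed to 1020 CPM in deficient-labelled and 685 CPM in wild-type-labelled B cells (0.57, 0.37 to 0.78), of which Plac8 made 848 CPM in deficient-labelled and 623 CPM in wild-type-labelled cells. Lyz2, which the rule limits, was at 125 CPM in deficient-labelled and 37.4 CPM in wild-type-labelled B cells (1.74, 0.90 to 2.72). Ccr2 had 38 deficient-labelled UMIs and 1 wild-type-labelled UMI (2.97, 0.41 to 8.31). The intervals of Ly6c2, Chil3 and Fn1 included 0. Fibroblast markers summed to 39.9 CPM in deficient-labelled and 15.6 CPM in wild-type-labelled B cells (1.36, 0.06 to 3.03). The part of these cell types in the results was not tested. Macrophage markers summed to 1048 CPM in deficient-labelled and 851 CPM in wild-type-labelled cells, of which Apoe made 967 CPM in deficient-labelled and 832 CPM in wild-type-labelled cells. Csf1r had 43 UMIs in deficient-labelled and 0 in wild-type-labelled B cells (1.56 against the floor, lower end 1.20). The intervals of C1qa, C1qb, C1qc, Adgre1 and Mrc1 reached below 0. The part of macrophages was not tested either.

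**Figure D4:**
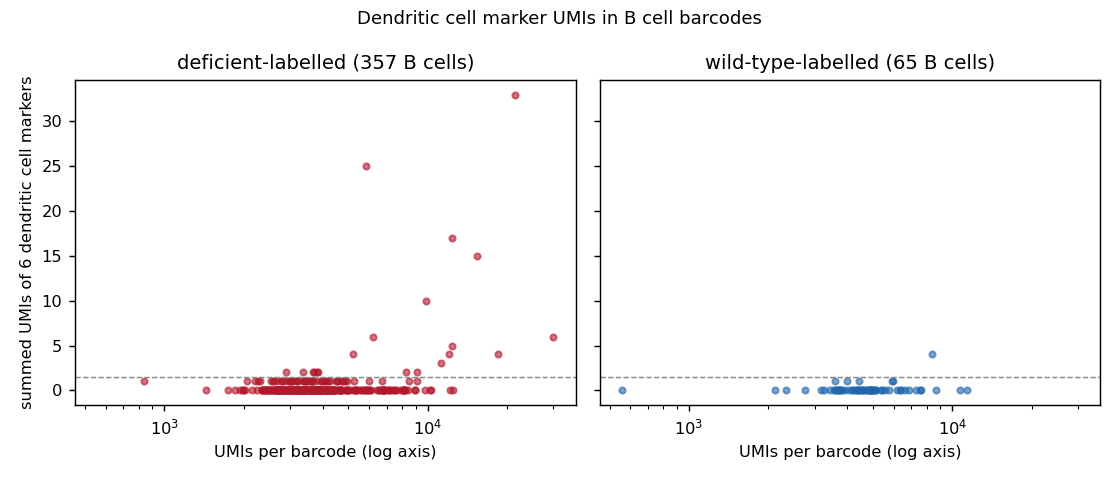
Summed UMIs of 6 dendritic cell markers (vertical axis) against total UMIs (log axis) for each B cell of the deficient-labelled (left) and the wild-type-labelled (right) library. Above the dashed line, at 2 or more marker UMIs, lie 20 of 357 deficient-labelled and 1 of 65 wild-type-labelled barcodes.

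Several of the high genes were also higher in other cells of the deficient-labelled library. Il1b, an inflammatory cytokine gene of myeloid cells, was at 178 CPM in deficient-labelled and 6.23 CPM in wild-type-labelled B cells, at 572 CPM in deficient-labelled and 148 CPM in wild-type-labelled T cells (1.95), and at 1398 CPM in deficient-labelled and 786 CPM in wild-type-labelled dendritic cells (0.83). Hspa1b had log2 ratios of 1.68 in T cells and 0.62 in dendritic cells. Cxcl2, a chemokine gene for neutrophils, was more spread, with UMIs in 199 of 357 deficient-labelled and 15 of 65 wild-type-labelled B cells, at 273 CPM in deficient-labelled and 53.0 CPM in wild-type-labelled cells (2.36, 1.67 to 3.16), and was not higher in T cells (-0.27). A single deficient-labelled barcode of 7598 UMIs held 115 of the 424 Cxcl2 UMIs, 34 of the 277 Il1b UMIs and 28 of the 87 UMIs of Il10, the cytokine of regulatory B cells. Il10 had 87 UMIs in deficient-labelled and 2 in wild-type-labelled B cells (3.17, 1.27 to 6.23). Of the 12 listed B cell cytokines 6 were measured, and Ccl22, a chemokine gene, was the other one past 1.5-fold (1.75, 0.12 to 4.08, on 3 wild-type-labelled UMIs). In T cells Ccl22 was at 340 CPM in the deficient-labelled and 13.8 CPM in the wild-type-labelled library.

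The lowest genes differed less. The 12 were Tiparp (-1.50), Rybp (-1.24), Tob2 (-1.23), Sppl3 (-1.17), Usp10 (-1.15), Irs2 (-1.13), Mff (-1.13), Lars2 (-1.12), Rragc (-1.11), Insig1 (-1.08), Elmsan1 (-1.06) and Usp12 (-1.04). Tob2, an antiproliferative gene on chromosome 15, was at 320 CPM in deficient-labelled and 751 CPM in wild-type-labelled B cells, with an interval below 0. It was found in 207 of 357 deficient-labelled and 51 of 65 wild-type-labelled B cells. Irs2, an adaptor of insulin and cytokine receptors, was at 298 CPM in deficient-labelled and 654 CPM in wild-type-labelled B cells (-1.37 to -0.89). Lars2, the mitochondrial leucyl-tRNA synthetase gene, was at 207 CPM in deficient-labelled and 449 CPM in wild-type-labelled cells (-1.40 to -0.82). These 3 were lower in other cells too: the log2 ratios in T cells and in dendritic cells were -0.82 and -0.48 for Tob2, -1.04 and -0.69 for Irs2, and -1.30 and -1.24 for Lars2. So were Tiparp (-1.06 and -0.63), Rybp (-0.68 and -0.33), Insig1 (-0.54 and -0.53), Elmsan1 (-0.55 and -0.53) and Usp12 (-0.67 and -0.45). All these genes had intervals below 0 in both cell types. Rragc was at -0.21 in T cells and -0.12 in dendritic cells, with intervals that included 0. Tiparp, a target gene of the aryl hydrocarbon receptor, was at 105 CPM in deficient-labelled and 296 CPM in wild-type-labelled B cells, where 82.1% of its 95 UMIs came from 10 of the 65 cells. Sppl3, Usp10 and Mff were lower in B cells, and in dendritic cells of the same libraries their log2 ratios were 0.20, 0.17 and 0.37. In T cells they were at -0.19 (Sppl3), 0.52 (Usp10) and -0.35 (Mff), each with an interval that included 0. The libraries are shared between these cell types, and the difference between them was not tested.

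**Figure D5:**
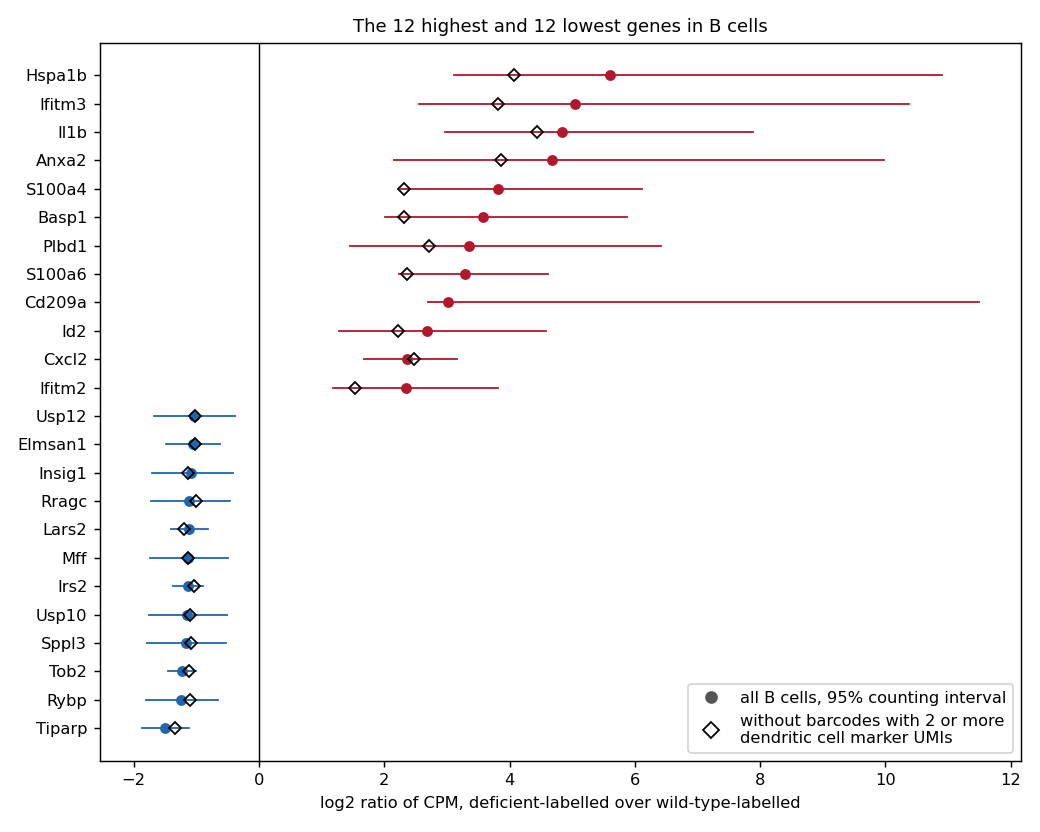
Log2 ratio of CPM (deficient-labelled on top) for the 12 highest (red) and 12 lowest (blue) genes in B cells, with 95% counting intervals as lines; the interval of Cd209a has no upper end and is cut at the plot edge. Open diamonds give the value without barcodes holding 2 or more dendritic cell marker UMIs, which is 2.31 against 3.82 for S100a4 and -1.34 against -1.50 for Tiparp.

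Within each library, B cells with an Ighd UMI in 1000 drawn UMIs were set against those without. The split gave 117 positive and 239 negative cells in the deficient-labelled library and 26 positive and 38 negative cells in the wild-type-labelled library. Levels were then taken from all UMIs. Of 2222 genes with at least 100 UMIs in the deficient-labelled library, 44 (1.98%) were over 1.5-fold higher and 86 (3.87%) over 1.5-fold lower in positive cells. In the wild-type-labelled library 11 (2.77%) of 397 were higher and 18 (4.53%) lower.

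Ighd positive cells had higher levels of Fcer2a, Ighm and Cd79b, although the interval of Fcer2a included 0 in the wild-type-labelled library. Fcer2a was at 231 CPM in Ighd positive and 152 CPM in Ighd negative cells in the deficient-labelled library (0.60, 0.23 to 0.96) and at 213 CPM in positive and 156 CPM in negative cells in the wild-type-labelled library (0.44, -0.37 to 1.24). Ighm was at 2364 CPM in positive and 1779 CPM in negative cells in the deficient-labelled library (0.41, 0.30 to 0.52) and at 3010 CPM in positive and 1660 CPM in negative cells in the wild-type-labelled library (0.86, 0.64 to 1.08). Cd79b had a log2 ratio of 0.38 in the deficient-labelled and 0.48 in the wild-type-labelled library. Of the highest 8 genes, which were ranked in the deficient-labelled library alone, Itgb3 (0.82) and Snx2 (0.75) had the same sign in the wild-type-labelled library, at 0.50 and 0.99. Acbd3, Lbr, Ccdc59, Bbx and Sec61a1, at 0.77 to 0.86 in the deficient-labelled library, had ratios between -1.62 and -0.01 in the wild-type-labelled library, each with an interval that included 0. When each cell was weighted by its chance of an Ighd UMI over all draws, an alternative chosen after seeing the data, Fcer2a had a log2 ratio of 0.56 in the deficient-labelled and 0.70 in the wild-type-labelled library. By that weighting 4 genes of the deficient-labelled library were over 1.5-fold higher and 39 lower.

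The lowest genes in Ighd positive cells of the deficient-labelled library were Hspa1b (-2.92), Hspa1a (-2.80), S100a6 (-2.46), S100a4 (-2.09), Zmiz1 (-1.47), Atf3 (-1.28), Jun (-1.26) and Ccnd2 (-1.26), a cyclin gene. Several of these values differed when the cells were split in another way. When cells were split on all their UMIs, without thinning, Hspa1b was at 0.07 (-0.35 to 0.50), Hspa1a at -0.21 (-0.60 to 0.19) and Jun at 0.32 (-0.14 to 0.80). Over all draws they were at -1.09 (Hspa1b), -1.02 (Hspa1a) and -0.28 (Jun). Ccnd2 was at -0.53 with the unthinned split and -0.58 over all draws, and Zmiz1 at -0.58 in both. S100a6 was at -1.86 and -1.85 and S100a4 at -1.34 and -1.63 in the same alternatives. Of the immediate-early and stress list, 20 were measured there, 0 were higher and 6 lower, with a median of -0.40. In the wild-type-labelled library 8 were measured, 0 were higher and 2 lower, with a median of -0.31. Without barcodes holding dendritic cell transcripts, the log2 ratios in the deficient-labelled library were -1.24 for Hspa1b, -1.17 for Hspa1a, -0.68 for S100a4 and -1.57 for S100a6. Hspa1a was lower in the wild-type-labelled library too, at 8.18 CPM in Ighd positive and 80.7 CPM in Ighd negative cells, on 1 and 16 UMIs (-3.30, -8.69 to -0.62). Jun was higher there, at 180 CPM in positive and 95.9 CPM in negative cells (0.91, -0.04 to 1.87). The MHC class II list did not separate the cells, with medians of 0.08 over 12 genes in the deficient-labelled and 0.09 over 6 genes in the wild-type-labelled library. Igha was at 257 CPM in Ighd positive and 314 CPM in Ighd negative cells of the deficient-labelled library (-0.29, -0.60 to 0.02). In the wild-type-labelled library it was at 32.7 CPM in positive and 217 CPM in negative cells, on 4 and 43 UMIs (-2.73, -4.67 to -1.27).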

How the data were processed

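RNA of lamina propria cells was captured by 10x 3' chemistry V3, per the labels, with 1 library for each genotype. The deposited values are UMI counts of genes in barcodes, without normalization. The submitters' processing notes name Cell Ranger, STAR 2.5.1b and mm10, and the matrices give a software version of 3.0.2, per the file headers. The deposited matrices hold only barcodes of at least 500 UMIs. The authors' own cell filters and doublet treatment are not given in the sources used here. Groups followed the titles and genotype labels, not the file names. Of 31053 gene identifiers, 30934 matched GENCODE M21 (GRCm38).

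Counts were summed over the B cells of a library and scaled to CPM, with Poisson intervals (exact). For ratios, the log2 of the deficient-labelled CPM divided by the wild-type-labelled CPM, the exact conditional binomial interval was used. Folds against 0 UMIs use 3 counts as the floor. No test was run, since each group was 1 library, and cells were not used as replicates. Intervals and floors cover counting error only. Thinned shares are expectations over all draws of 1000 UMIs, with Clopper-Pearson intervals on the expected cells rounded to whole numbers. Doublets were ranked with Scrublet in scanpy 1.11.5. Scripts ran in Python 3.11.15 with pandas 2.3.3, scipy 1.17.1, matplotlib 3.10.9 and numpy 2.4.6. The ratio and its interval were tested on simulated counts.

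The members, the 17 gene lists and the 14 marker lists were chosen with earlier results of these data known. Genes were named by rule: the markers and genes of the cell rule, of each list up to 5 measured members with the largest ratios and the 2 most abundant, the 12 genes at each end of the ratios, among those of 100 or more UMIs with an interval off 0 (without immunoglobulin, T cell receptor, mitochondrial, ribosomal and unnamed genes), the 15 leading B cell genes, and the 8 highest and 8 lowest genes between Ighd positive and negative cells. Syk, Btk, Lyn, Plcg2, Nr4a1, Nr4a2, Irf4, Ccr7, Cd69, unmeasured germinal centre genes, and genes of single barcodes were named outside these ranks, after their values were seen. Alternatives were other cell limits, depths, gene minimums and scalings, with likely doublets removed. Some genes that these rules name are not reported here.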

Additional observations from a re-analysis of the deposited data

How the results depend on the processing

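Under every alternative run, the share of B cells was higher in the deficient-labelled than in the wild-type-labelled library. With 2 Ms4a1 UMIs required the shares were 3.35% in the deficient-labelled and 1.65% in the wild-type-labelled library, and with stricter limits on UMIs of other cells 3.51% in the deficient-labelled and 1.88% in the wild-type-labelled library. Of 2877 genes measured under the stricter limits, 309 (10.7%) were over 1.5-fold higher and 267 (9.28%) lower in deficient-labelled B cells. With a gene minimum of 20 UMIs these were 1346 (19.7%) and 794 (11.6%) of 6842. With 200 UMIs they were 70 (5.34%) and 76 (5.79%) of 1312, against 590 (13.2%) and 421 (9.45%) of 4454 at 50 UMIs. At 200 UMIs 47.9% of the genes past 1.5-fold were higher, against 58.4% at 50 UMIs. The Ighd share was 20.6% in deficient-labelled and 27.5% in wild-type-labelled B cells at 500 UMIs, 55.1% in deficient-labelled and 62.6% in wild-type-labelled ones at 2000 UMIs, and 72.8% in deficient-labelled and 81.5% in wild-type-labelled ones without thinning. Between Ighd positive and negative cells of the deficient-labelled library, the main split gave 44 higher and 86 lower of 2222 genes. Splitting on unthinned counts gave 87 higher genes. Averaging over all thinnings, chosen after seeing the data, gave 4 higher and 39 lower genes. Leaving out barcodes with dendritic cell transcripts, chosen likewise, gave 55 lower genes. Of the log2 ratios of single genes, Rgs1 turned to 0.41 with doublets removed by score rank and to 0.43 without barcodes over 10000 UMIs (chosen after seeing the data), and under the stricter limits Cd44 turned to -0.15 and Hspa1a to -0.16; the cause was not tested. The 24 highest and lowest genes kept their sign in each alternative that gave a value, although Cd209a gave none under 2, and the ratios of Hspa1b (1.82), Anxa2 (1.22), S100a4 (1.38) and Cxcl2 (1.42) were far smaller under the stricter limits. Ahnak was at 0.05 there and Cd22 at -1.33, while Cd22 was at -0.19 with 2 Ms4a1 UMIs required. Over 9 alternatives the median of the follicular list ran between -0.35 and -0.21, of the plasma cell programme between 0.48 and 1.04, of the marginal zone and B1 list between 0.22 and 0.55, and of the interferon-stimulated list between 0.06 and 0.58. The medians of the homing list (-0.38 to 0.08), the memory list (-0.21 to 0.32) and the proliferation list (-0.60 to 0.29) took both signs. The number of cells limits rare states: 0 of 64 thinned wild-type-labelled B cells allows a share of up to 4.69% at 3 counts. No paired analysis was possible because each group was 1 library.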

Other observations

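Apoe, a lipid carrier gene counted among macrophage markers, was found in B cells of both libraries at 967 CPM in deficient-labelled and 832 CPM in wild-type-labelled cells, against 113 CPM in deficient-labelled and 27.6 CPM in wild-type-labelled T cells, and 63.5 CPM in deficient-labelled and 18.1 CPM in wild-type-labelled dendritic cells. It was in 69.8% of deficient-labelled and 53.9% of wild-type-labelled B cells without thinning. C1qa, another macrophage gene, which the cell rule limits, was at 12.2 CPM in deficient-labelled B cells. Apoe differed little between Ighd positive and negative cells, at 1057 CPM in positive and 931 CPM in negative cells of the deficient-labelled library (log2 ratio 0.18, 0.02 to 0.34), and at 826 CPM in positive and 838 CPM in negative cells of the wild-type-labelled library (-0.02, -0.39 to 0.35). Plac8, counted among monocyte markers, was at 848 CPM in deficient-labelled and 623 CPM in wild-type-labelled B cells, against 205 CPM in deficient-labelled and 157 CPM in wild-type-labelled T cells, and 391 CPM in deficient-labelled and 427 CPM in wild-type-labelled dendritic cells. These genes were singled out after their values were seen, and free RNA was not tested as their source.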
